A study of Arabidopsis thaliana with 7 samples.

Results

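A set of 142 genes of Arabidopsis thaliana whose transcript level was at least 2 times higher in glk1 glk2 double mutants than in wild type (WT) is described here. The genes were selected on their measured levels: the mutant mean had to reach 5 TPM and 2 times the WT mean, with every mutant library above every WT library. It was met by 157 of the 27655 genes in the table (0.568%), and 16 genes that belong to other groups were left out by name, of which 15 met it. TPM is a relative transcript level, corrected for transcript length and scaled to the same sum in each library. Because the rule was built on the levels of the mutant and of WT, the differences between the 2 groups are given for the 142 genes as a description, with no test.

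The mutant group held 4 libraries of glk1 glk2 double mutants, and the WT group held 3 libraries. Both groups were Col-0 seedlings aged 12 days, kept at 16 °C under long days on half-strength MS medium and collected at ZT4, which is 4 h after lights on. Each library was made from total RNA of whole seedlings, so a change in the share of an organ and a change in RNA per cell cannot be told apart in any result below. Nothing in the labels says whether the libraries came from separate plantings, and the sources used here name no mutant alleles. GLK1 (AT2G20570) had 49.7, 51.0, 56.0 and 49.9 TPM in mutant replicates 1 to 4, against 183, 187 and 203 TPM in WT replicates 1 to 3. GLK2 (AT5G44190) had 50.6, 54.4, 46.0 and 51.5 TPM in the mutant, against 161, 155 and 159 TPM in WT. Both transcripts were lower in every mutant library and neither was lost.

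GLK1 and GLK2 are transcription factors of the GARP family that promote chloroplast development and switch on genes for chlorophyll synthesis and light harvesting. Seedlings that lack both are pale. The genes described here stand on the other side of that contrast. By their names they fall into wall proteins, enzymes of starch and sugar, sulfur metabolism, flavonoid synthesis, transport and defence.

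The scale of the values bears on the whole set. TPM has a fixed sum, so a lower share of some transcripts raises the TPM of the rest, and 63% of all tested genes were called higher in the mutant by limma in TPM. The median log2 fold change was 1.05 for the 142 genes and 0.33 for all 19127 genes tested. After scaling by trimmed means of log ratios (TMM), which centres most genes near 0, the medians were 0.71 and 0.011. The ratio of means ran between 2.00 and 5.21 with a median of 2.22 in TPM, and between 1.55 and 3.995 with a median of 1.72 after TMM scaling. With TMM scaling the rule was met by 0.141% of all genes, and by 32 of the 142. In limma, 139 of the 142 were called higher in TPM, against the 63% above, and 77 were called higher after TMM scaling, where 3.2% were. These counts follow from the rule and are no evidence about the genes.

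**Figure D1:**
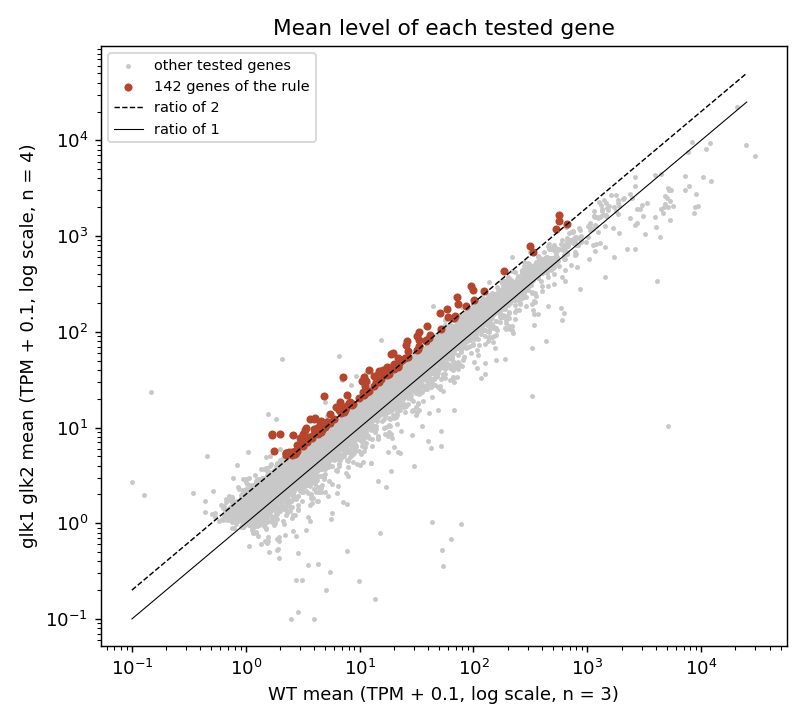
Mean level of each tested gene in WT (horizontal axis, TPM + 0.1, log scale) and in glk1 glk2 (vertical axis, TPM + 0.1, log scale), with the 142 genes in red and the other tested genes in grey. The red points lie along or above the dashed line of ratio 2, from a mutant mean of 5.01 to 1647 TPM. Because 0.1 is added to both means, genes closest to a ratio of 2 fall just under the line.

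Most of the set lies close to its threshold: 98 genes had a ratio under 2.5, 19 a ratio of at least 3, and 5 a ratio of at least 4. Just inside were PES2 at 2.0016, GLR2.7 at 2.0023 and GA3OX1 at 2.0041. Just outside were ERF15 at 1.9987, AT4G16630 at 1.9938 and RING1 at 1.9932, and 1853 genes met the other terms with a ratio between 1.5 and 2. On the level term, RHS16 was just inside with a mutant mean of 5.005 TPM and NUDT24 just outside with 4.895 TPM. Mutant means were under 10 TPM for 39 genes and over 100 TPM for 22, with a median of 22.6 TPM.

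The 12 genes with the largest ratio come from several families. BAM5 (AT4G15210), a beta-amylase, an enzyme that frees maltose from starch-like glucans, had the largest ratio. It had 6.09, 6.69, 18.2 and 2.69 TPM in the mutant, against 1.36, 1.43 and 2.05 TPM in WT. Mutant replicate 3 was far above the other mutant libraries, and the ratio of 5.21 became 3.20 without it. CWINV5 (AT3G13784), named as a cell wall invertase, a family that splits sucrose outside the cell, had 9.02, 5.61, 9.72 and 8.96 TPM in the mutant, against 1.02, 1.21 and 2.62 TPM in WT. Its mutant libraries were all more than 2 times the highest WT library.

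AT5G55450, of the lipid transfer and seed albumin superfamily of small secreted proteins, had 28.5, 37.0, 44.9 and 24.8 TPM in the mutant, against 4.79, 6.84 and 9.58 TPM in WT. AT3G22142 of the same superfamily had 20.7, 8.93, 35.4 and 20.5 TPM in the mutant, against 3.46, 4.42 and 6.57 TPM in WT. Another such gene, CWLP (AT3G22120), a linker between cell wall and plasma membrane by name, was the most abundant of the 142 genes. CWLP averaged 1647 ± 389 TPM in the mutant (SD, n = 4) and 566 ± 72.1 TPM in WT (SD, n = 3). In all 3 genes mutant replicate 3 was the highest library and WT replicate 1 the lowest. Much of each annotated transcript also occurs in an annotated gene on the opposite strand: 41.0% of the 50-base stretches of AT5G55450, 20.0% of those of CWLP and 1.13% of those of AT3G22142 occur in no other gene. The sources used here do not say whether reads were assigned by strand, so their values are uncertain.

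AT1G51090, a heavy metal domain protein, had 9.19, 6.59, 6.39 and 11.4 TPM in the mutant, against 1.77, 2.00 and 1.96 TPM in WT. Its WT libraries were nearly alike. GIS (AT3G58070), a zinc finger regulator known for promoting trichome formation downstream of gibberellin, had 12.3, 11.0, 11.1 and 14.7 TPM in the mutant, against 3.56, 3.05 and 4.06 TPM in WT. AT2G41090, a calcium-binding EF-hand protein, was both strongly different and abundant, with 257, 338, 289 and 331 TPM in the mutant, against 88.4, 88.3 and 110 TPM in WT. Neither of these genes leaned on 1 mutant library: the ratio without the highest library was 3.21 for GIS and 3.06 for AT2G41090. AT2G15042, a leucine-rich repeat protein, and CYP716A2, a cytochrome P450, had ratios of 3.38 and 3.33. FRO5 (AT5G23990), of the ferric reductase family, had 10.4, 9.77, 11.9 and 18.2 TPM in the mutant, against 5.71, 4.18 and 1.99 TPM in WT. Its WT libraries spread nearly as widely, in proportion, as the groups differ.

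**Figure D2:**
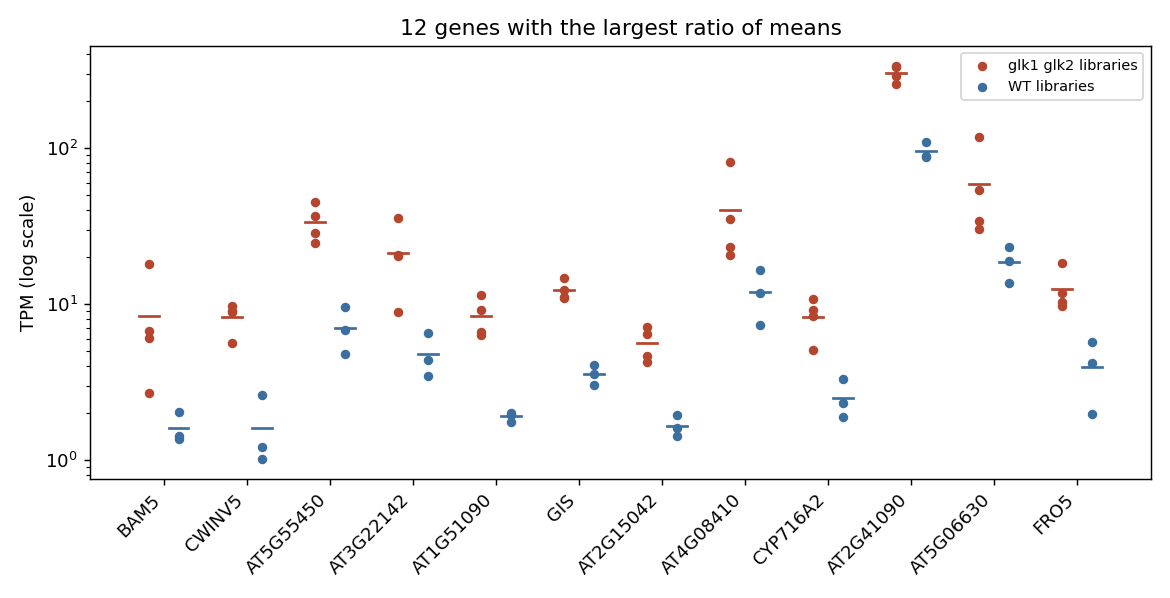
TPM (log scale) of the 12 genes with the largest ratio of means, with a point for each glk1 glk2 library (red, left) and each WT library (blue, right) and a bar at the group mean. AT2G41090 stands near 304 TPM in the mutant and 95.6 TPM in WT, and the extensin genes AT4G08410 and AT5G06630 each have 1 mutant library far above the rest.

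Extensins and proline-rich wall proteins numbered 15. Extensins are rod-like glycoproteins of the cell wall built from repeats of a serine followed by prolines, which are hydroxylated and cross-linked, and several are made in growing root hairs. In coding DNA the unit searched was a TCN codon followed by 4 CCN codons, in frame. At least 5 such units were found in 32 of 27444 coding genes (0.117%), and 14 of those 32 were among the 142 genes, all in this family. The minimum of 5 was chosen after seeing the data. The number of units ran from 11 in LRX2 to 70 in AT3G28550, and PRP1 had 1. Coding stretches from 4 of the genes are shown because they carry what the family shares, with the repeat units in capitals:
AT4G08410: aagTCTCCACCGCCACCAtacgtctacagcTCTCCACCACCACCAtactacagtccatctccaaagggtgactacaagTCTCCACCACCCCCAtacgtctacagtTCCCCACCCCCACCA
EXT10: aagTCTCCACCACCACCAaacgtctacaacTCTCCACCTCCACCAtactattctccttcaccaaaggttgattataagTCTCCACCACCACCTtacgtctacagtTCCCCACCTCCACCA
EXT3: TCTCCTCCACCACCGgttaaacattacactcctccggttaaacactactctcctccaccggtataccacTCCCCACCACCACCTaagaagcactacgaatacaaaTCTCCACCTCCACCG
AT2G43150: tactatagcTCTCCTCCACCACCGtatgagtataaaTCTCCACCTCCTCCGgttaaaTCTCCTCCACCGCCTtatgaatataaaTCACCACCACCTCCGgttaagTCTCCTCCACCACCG
These stretches run from coding base 445 to 564 of AT4G08410 (TAIR10.1 chromosome 4, 5338819 to 5341209, minus strand), 301 to 420 of EXT10 (chromosome 5, 2039598 to 2041928, minus strand), 97 to 216 of EXT3 (chromosome 1, 7453245 to 7455009, minus strand) and 94 to 213 of AT2G43150 (chromosome 2, 17945662 to 17947155, plus strand). They hold 4 units each in AT4G08410 and EXT10, 3 in EXT3 and 5 in AT2G43150.

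Mutant replicate 4 was the highest mutant library for 29.6% of all tested genes. All 15 genes placed in this family by hand were highest in mutant replicate 4 and lowest, within WT, in WT replicate 3. Genes with related names in other groups did not all share this. CWLP was highest in mutant replicate 3 and lowest, within the mutant, in replicate 4. AT3G24480, a leucine-rich repeat gene placed under defence, was highest in mutant replicate 4, but its lowest WT library was replicate 1. Its ratio of 2.45 became 2.22 without mutant replicate 4. Counts over the 15 genes depend on this placement by hand. EXT10 (AT5G06640) had 72.2, 35.7, 38.0 and 172 TPM in the mutant, against 31.9, 26.7 and 19.3 TPM in WT. AT4G08410 had 35.1, 20.5, 23.4 and 81.9 TPM in the mutant, against 16.6, 11.8 and 7.38 TPM in WT. In both, mutant replicate 2 was only slightly above WT replicate 1. LRX1 (AT1G12040), a leucine-rich repeat extensin required for normal root hairs, had 28.6, 16.4, 17.4 and 58.4 TPM in the mutant, against 13.4, 10.9 and 7.20 TPM in WT. The most abundant were EXT3, with 1331, 826, 1365 and 1832 TPM in the mutant against 646, 709 and 619 TPM in WT, and AT2G43150, with 640, 488, 681 and 921 TPM in the mutant against 343, 332 and 319 TPM in WT. In these 2 genes the WT libraries were close together, while in EXT10 and AT4G08410 they were not.

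The ratios of the 15 genes ran from 2.03 to 3.38 with all libraries. Without mutant replicate 4, 4 of the 15 kept a ratio of at least 2, and without mutant replicate 3 all 15 did. The summed level of the 15 genes was 3006, 1929, 2776 and 5110 TPM in the mutant libraries, against 1496, 1472 and 1229 TPM in WT. The summed level of 5 root markers (COBL9, EXPA7, CASP1, IRT1 and NRT2.1) was 103, 89.96, 80.2 and 141 TPM in the mutant libraries, against 95.2, 70.9 and 42.3 TPM in WT. Both sums were highest in mutant replicate 4 and lowest in WT replicate 3, and the ranges of the root marker sum overlapped between the groups. CASP1 made up most of the root marker sum, with 81.05 TPM in mutant replicate 4 and 26.95 TPM in WT replicate 3. IRT1 alone had a lower mean in the mutant, at 1.61 TPM against 3.04 TPM in WT. None of the 4 root markers tested was called with both scalings and 1 was called higher in TPM (limma). NRT2.1 was at or under 0.7 TPM in every library. The part of root content in these results was not tested.

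**Figure D3:**
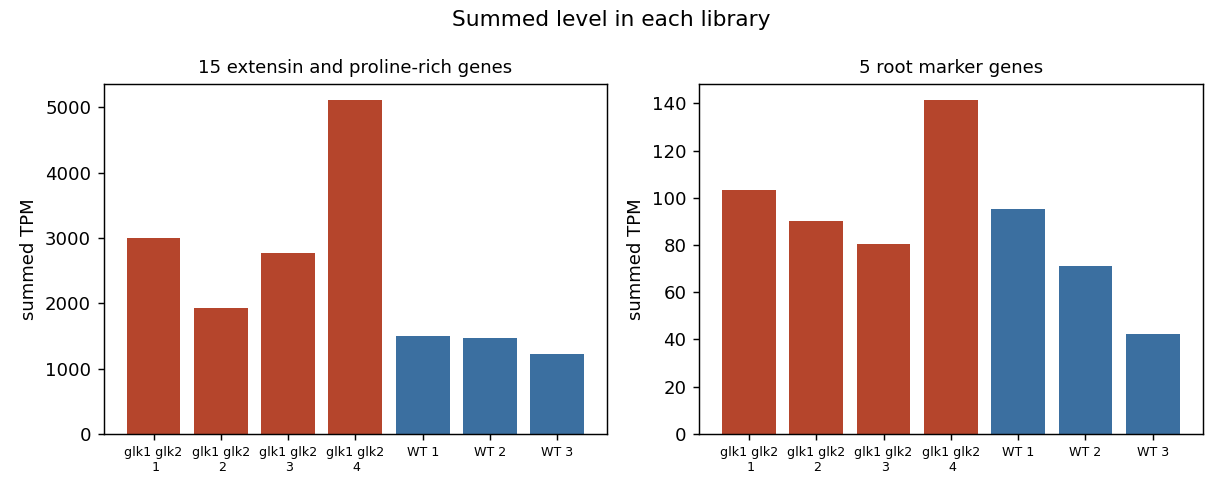
Summed TPM in each library of the 15 extensin and proline-rich genes (left) and of 5 root marker genes (right), glk1 glk2 libraries in red and WT libraries in blue. Both sums are highest in glk1 glk2 replicate 4, at 5110 and 141 TPM, and lowest in WT replicate 3, at 1229 and 42.3 TPM.

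Some of these genes share sequence. AT4G08400 and AT4G08410 are identical over 704 coding bases, and 48.6% and 59.8% of their 50-base stretches are their own, so their values cannot be taken as separate. In all, 7 of the 105 pairs within the family share 50 or more identical coding bases. EXT3 is overlapped on the other strand by AT1G21313, an uncharacterized gene that is also among the 142 and has 9.05% of stretches of its own. AT1G21313 had 5.17, 4.72, 5.33 and 6.84 TPM in the mutant, against 3.8, 2.46 and 0.65 TPM in WT. Of the 12 other tested genes with at least 5 repeat units, 1 was called higher and 0 lower with both scalings (limma), where 3.2% and 2.53% of all tested genes were. Their median log2 fold change in TPM was 0.58, against 0.33 for all tested genes.

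Another 17 genes act in the wall, in root hairs or as peroxidases, and 13 of them were also highest in mutant replicate 4. That library was the highest mutant library for 29.6% of all tested genes. RHD2 (AT5G51060), the NADPH oxidase of root hair tip growth, had 7.54, 5.87, 6.97 and 12.2 TPM in the mutant, against 4.50, 3.72 and 2.85 TPM in WT. RHS16 and PERK13, kinases known as root hair specific, and XTH13, a xyloglucan-modifying enzyme, had ratios of 2.04, 2.01 and 2.04, which became 1.57, 1.585 and 1.70 without mutant replicate 4. AT3G49960, a peroxidase, had 52.2, 40.8, 37.1 and 83.1 TPM in the mutant, against 33.5, 24.9 and 16.7 TPM in WT. WAK2 and TBL26 were highest in mutant replicate 2 instead. WAK2 (AT1G21270), a wall-associated receptor kinase that binds pectin, had 22.7, 25.3, 24.9 and 23.6 TPM in the mutant, against 11.9, 11.3 and 12.6 TPM in WT. TBL26 had a ratio of 2.30. PME61, a pectin methylesterase, was highest in mutant replicate 4, and its ratio of 2.34 became 2.01 without it.

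Sulfur and glutathione genes numbered 9, and 8 of them were highest in mutant replicate 3, against 42.2% of all tested genes. Plants short of sulfur raise a small set of transcripts that includes LSU1, LSU2, LSU3 and SDI1, together with those for sulfate uptake, sulfate reduction and glutathione recycling. SDI1 (AT5G48850), which restrains glucosinolate synthesis when sulfur is low, had 109, 148, 281 and 93.6 TPM in the mutant, against 51.9, 45.8 and 53.8 TPM in WT. LSU1 (AT3G49580) had 44.4, 56.6, 106 and 46.7 TPM in the mutant, against 29.5, 21.3 and 28.8 TPM in WT. LSU2 (AT5G24660) had 77.3, 89.5, 123.5 and 80.9 TPM in the mutant, against 43.7, 39.3 and 42.1 TPM in WT. In each of these the 3 lower mutant libraries were still above all WT libraries, which the rule asked for.

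The enzymes named next were also highest in mutant replicate 3. APR3 (AT4G21990), an adenylylsulfate reductase of sulfate assimilation, had 157, 200, 241 and 153 TPM in the mutant, against 81.4, 86.1 and 89.0 TPM in WT. AT5G26220, a ChaC-like protein of the family that breaks down glutathione, had 36.6, 60.1, 105 and 38.3 TPM in the mutant, against 15.9, 18.8 and 23.5 TPM in WT. SHM7, a serine hydroxymethyltransferase, and SERAT3;2, a serine acetyltransferase, had ratios of 2.13 and 2.51, which became 1.77 and 1.80 without mutant replicate 3. Without that library 3 of the 9 genes kept a ratio of at least 2. CPSUFE (AT4G26500), which activates sulfur for iron-sulfur clusters in the plastid, was the exception and was highest in mutant replicate 2, but none of its 50-base stretches is its own, as the gene UKL4 covers it on the other strand.

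Of the 13 genes of starch, sugar and trehalose metabolism, 11 were highest in mutant replicate 3, and 8 kept a ratio of at least 2 without it. That library was the highest mutant library for 42.2% of all tested genes. Starch is built in the plastid by day from ADP-glucose and broken down at night to maltose and glucose. On the side of synthesis, GBSS1 (AT1G32900), the granule-bound starch synthase that makes amylose, had 207, 249, 404 and 208 TPM in the mutant, against 126, 118 and 126 TPM in WT. APL3 (AT4G39210), a large subunit of ADP-glucose pyrophosphorylase, had 28.0, 30.3, 55.8 and 26.3 TPM in the mutant, against 14.0, 16.9 and 16.5 TPM in WT. In both genes mutant replicate 3 was far above the other 3 mutant libraries.

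On the side of breakdown, CT-BMY (AT4G17090), the chloroplast beta-amylase also known as BAM3, had 297, 259, 239 and 298 TPM in the mutant, against 99.0, 96.2 and 100.2 TPM in WT. Here mutant replicate 3 was the lowest mutant library, and the groups were far apart. SEX4 (AT3G52180), a phosphatase that removes phosphate from starch before it is degraded, and PHS2 (AT3G46970), the cytosolic glucan phosphorylase, had ratios of 2.17 and 2.37. HXK2, a hexokinase, had 30.5, 31.3, 36.2 and 31.3 TPM in the mutant, against 15.7, 15.5 and 15.1 TPM in WT, with little spread in either group. SWEET13 (AT5G50800), a sucrose exporter, had 27.2, 26.6, 46.4 and 22.3 TPM in the mutant, against 11.5, 11.3 and 10.8 TPM in WT. TPS5, of the trehalose phosphate synthase family, had a ratio of 2.19.

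Flavonoid, anthocyanin and glycoside genes numbered 11, and 10 were highest in mutant replicate 3, against 42.2% of all tested genes. Flavonoids are made from phenylalanine through coumaroyl-CoA, then hydroxylated, and decorated with sugars and acyl groups before they reach the vacuole. 4CL3 (AT1G65060), which makes coumaroyl-CoA for this pathway, had 22.4, 22.0, 38.4 and 26.1 TPM in the mutant, against 9.92, 10 and 13.2 TPM in WT. TT7 (AT5G07990), the flavonoid 3'-hydroxylase, had 16.3, 19.7, 36.3 and 21.2 TPM in the mutant, against 9.93, 10.4 and 11.4 TPM in WT. GSTF12 (AT5G17220), needed to bring anthocyanins to the vacuole, had 34.1, 42.4, 98.6 and 40.5 TPM in the mutant, against 23.0, 24.1 and 32.9 TPM in WT. For GSTF12 the lowest mutant library was close to the highest WT library.

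Of the acyl- and glycosyltransferases, those named next were highest in mutant replicate 3, while the glycosyltransferase gene AT4G27560 was highest in replicate 4. AT1G03940 and AT1G03495, acyltransferases that differ in place but share 515 of their 50-base stretches, had ratios of 2.88 and 2.22. UF3GT, UGT73B2 and UGT84A2, glycosyltransferases, had ratios of 2.28, 2.02 and 2.101. RHM1, which makes UDP-rhamnose, had 126, 122, 167 and 136 TPM in the mutant, against 63.9, 70.4 and 68.7 TPM in WT. Without mutant replicate 3 only 2 of the 11 genes, AT4G27560 and 4CL3, kept a ratio of at least 2. Over all 142 genes, mutant replicate 3 was the highest mutant library for 64 (45.1%) and replicate 4 for 70 (49.3%), against 42.2% and 29.6% of all tested genes. Without its own highest mutant library each gene still had a ratio of at least 1.46, and 68 of the 142 kept a ratio of at least 2.

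**Figure D4:**
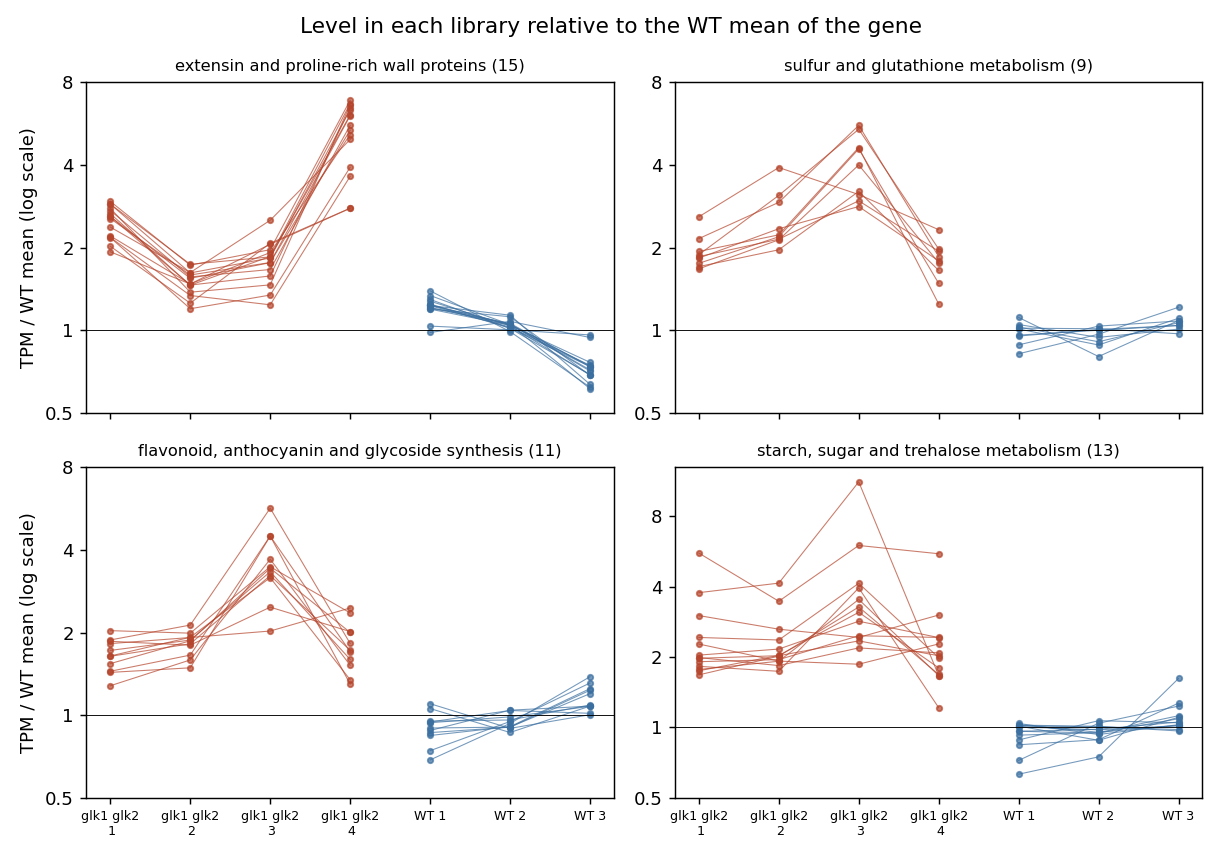
TPM in each library divided by the WT mean of the gene (log scale), for 4 groups of genes, with lines joining the values of 1 gene in the glk1 glk2 libraries (red) and in the WT libraries (blue). The 15 extensin and proline-rich genes peak in glk1 glk2 replicate 4, while 8 of 9 sulfur genes, 10 of 11 flavonoid genes and 11 of 13 starch and sugar genes peak in glk1 glk2 replicate 3.

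The 17 genes of ion, nitrogen and metabolite transport were less uniform. CNGC11 (AT2G46440), a cyclic nucleotide-gated channel linked to defence, had 10.1, 11.4, 15.7 and 11.5 TPM in the mutant, against 3.55, 3.82 and 4.14 TPM in WT. It shares 724 of 2644 stretches with its neighbour CNGC12, which had 48.3 to 63.5 TPM in the mutant and 33.0 to 37.6 TPM in WT. NIR1 (AT2G15620), the nitrite reductase, had 238, 173, 160 and 278 TPM in the mutant, against 97.2, 99.6 and 107 TPM in WT. PHO2, a ubiquitin-conjugating enzyme that limits phosphate uptake, and HB2, a hemoglobin, had ratios of 2.05 and 2.12. HB2 had 84.2, 83.9, 72.2 and 85.6 TPM in the mutant, against 35.7, 38.9 and 40.6 TPM in WT, with clear separation. NRT1.7, a nitrate transporter of the phloem, and UMAMIT14, an amino acid exporter, were highest in mutant replicate 3, while FRO4 and HA7, a proton pump, were highest in replicate 4.

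The 12 defence and receptor genes had ratios from 2.01 to 3.38. ESM1 (AT3G14210), which steers glucosinolate breakdown towards isothiocyanates, was the most abundant, with 798, 807, 908 and 673 TPM in the mutant, against 291, 302 and 352 TPM in WT. RPP4 (AT4G16860), a receptor for resistance to downy mildew, had 45.1, 35.6, 46.0 and 46.1 TPM in the mutant, against 20.8, 20.9 and 22.6 TPM in WT. AT1G58602, another resistance protein of the leucine-rich repeat type, had 43.0, 43.9, 50.5 and 44.9 TPM in the mutant, against 20.8, 20.1 and 23.1 TPM in WT. In RPP4 mutant replicate 2 was below the other mutant libraries. Of the 50-base stretches, 86.9% of those of AT1G58602 and 73.0% of those of RPP4 occur in no other gene.

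A group of 5 genes was set apart for chlorophyll breakdown and plastid proteins that have no place in the groups above. FIB (AT4G04020), a fibrillin that coats the lipid droplets of the plastid, had 456, 426, 381 and 446 TPM in the mutant, against 190, 178 and 182 TPM in WT. PES1 and PES2, which store the phytol of degraded chlorophyll as esters, had ratios of 2.25 and 2.00, with mutant replicate 3 the highest for both. PES2 became 1.65 without that library. CLH2, a chlorophyllase, had a ratio of 2.37, with 29.5% of its stretches its own. CAF1, a splicing factor for plastid introns, had a ratio of 2.07.

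Among regulators, AT2G40435, a SCREAM-like protein, had 9.39, 9.53, 9.97 and 8.04 TPM in the mutant, against 3.71, 2.79 and 3.10 TPM in WT. DPBF2, a bZIP factor of seeds, had 7.49, 12.7, 26.7 and 7.58 TPM in the mutant, against 5.27, 6.07 and 4.70 TPM in WT, and its ratio of 2.55 became 1.73 without mutant replicate 3. GA3OX1 (AT1G15550), which makes active gibberellin, had 9.51, 7.0, 9.90 and 9.37 TPM in the mutant, against 3.71, 5.06 and 4.62 TPM in WT.

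Of the 8 uncharacterized proteins, 3 were abundant. AT5G42530, of 71 amino acids, had 1228, 1625, 1093 and 1867 TPM in the mutant, against 617, 469 and 593 TPM in WT. AT2G25510, of 103 amino acids, had 994, 1296, 997 and 1460 TPM in the mutant, against 582, 477 and 543 TPM in WT. AT1G76960, of 52 amino acids, averaged 114 ± 48.7 TPM in the mutant (SD, n = 4) and 38.7 ± 6.92 TPM in WT (SD, n = 3). In each of these, mutant replicate 4 was the highest library. The remaining 27 genes encode enzymes and other proteins with ratios from 2.005 to 3.33. AT2G39710, an aspartyl protease, was the most even of those named, with 16.6, 16.9, 17.2 and 17.8 TPM in the mutant, against 7.40, 7.93 and 8.07 TPM in WT.

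**Figure D5:**
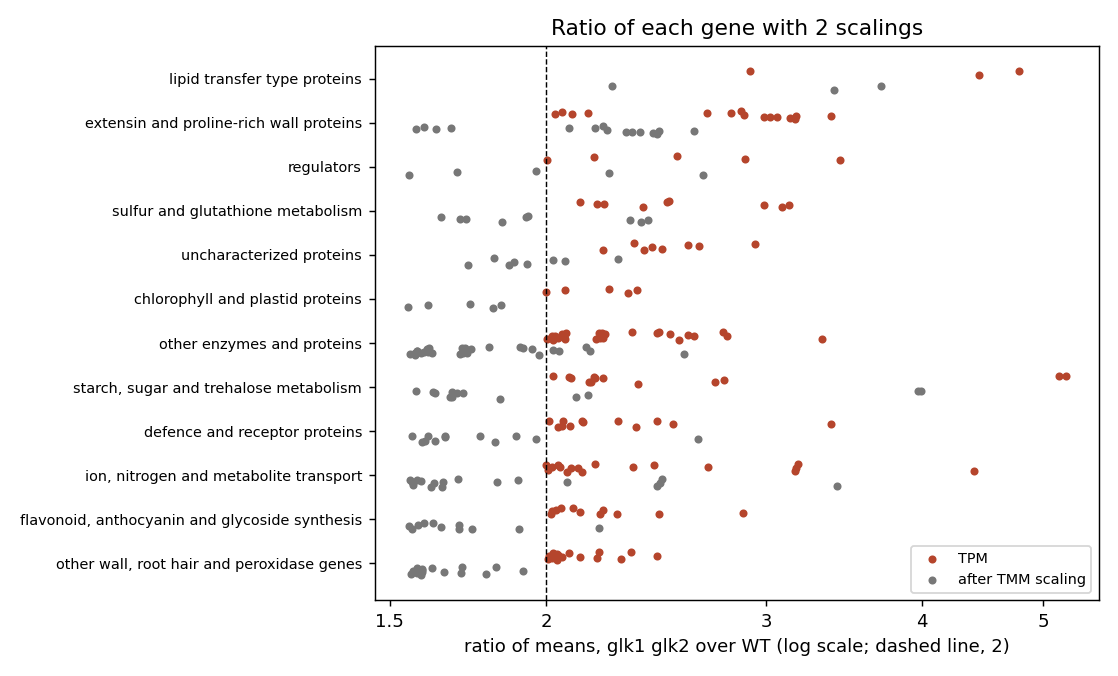
Ratio of means of each of the 142 genes, glk1 glk2 over WT (log scale), by group, in TPM (red) and after TMM scaling (grey), with a dashed line at 2. All 142 points are at or above 2 in TPM, and 32 of the 142 genes met the whole rule after TMM scaling.

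Position and promoters were not used by the rule. The 142 genes lie on all 5 chromosomes, and 9 pairs are next to each other, among them LSU3 and LSU1, FRO4 and FRO5, AT5G06630 and EXT10, AT3G54580 and HRGP1, and WAK1 and WAK2. Each of these 5 pairs joins genes of 1 family by name. Of 258 tested neighbours that are not among the 142, 12 were called higher with both scalings (4.65%) and 4 lower (1.55%), against 3.2% and 2.53% of all tested genes. Genes left out of the set by name were not removed from these neighbours. LTI78 (AT5G52310) is such a gene and is among the 12. It averaged 56.3 TPM in the mutant and 27.2 TPM in WT, and its call follows from the rule. Neighbours called higher were 4 without mutant replicate 1, 4 without WT replicate 1 and 2 without WT replicate 2. Among them BGLU8, a beta-glucosidase beside ATGSTF13, averaged 87.2 ± 0.80 TPM in the mutant (SD, n = 4) and 47.3 ± 1.495 TPM in WT (SD, n = 3). Its log2 fold change was 0.87 in TPM (limma adjusted p = 1.986e-05) and 0.51 with TMM factors applied (limma adjusted p = 9.990e-04). PSY, the phytoene synthase gene beside GSTF12, was lower, with 109 ± 7.99 TPM in the mutant (SD, n = 4) and 191 ± 11.2 TPM in WT (SD, n = 3), or -0.81 (limma adjusted p = 1.688e-04) in log2 TPM and -1.17 (limma adjusted p = 3.348e-05) with TMM factors applied.

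Of the 34 protein families searched by name, 23 held at least 1 of the 142 genes. Their 3980 other tested genes included 125 called higher (3.14%) and 100 called lower (2.51%), close to the shares of all genes. Genes left out of the set by name were not removed from these relatives either. The number called higher was 65 without mutant replicate 1, and 42, 31 and 67 without WT replicate 1, 2 or 3. In the wall family 17 of 341 relatives were called higher and 4 lower, and among receptor kinases and leucine-rich repeat proteins 15 of 256 and 3. Among cytochrome P450 enzymes 4 of 151 were called higher and 13 lower, although 4 P450 genes are among the 142. CYP71B26, a P450 that is not among the 142 because its ratio was under 2, averaged 98.2 ± 5.41 TPM in the mutant (SD, n = 4) and 49.6 ± 0.86 TPM in WT (SD, n = 3). Its log2 fold change was 0.97 in TPM (limma adjusted p = 2.277e-05) and 0.61 with TMM factors applied (limma adjusted p = 3.553e-04).

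Promoters were read as the 250 bases before the annotated start, on both strands, for the 142 genes and for 27443 coding genes. The letters CCAATC, a sequence bound by GLK factors, occur in 16 of the 142 (11.3%) and in 10.2% of all promoters. The G-box CACGTG occurs in 3 (2.11%) and in 6.49% of all. The W-box letters TTGACC and TTGACT occur in 16 and 21 (11.3% and 14.8%), against 12.2% and 19.1% of all. The TATA box TATAAA occurs in 79 (55.6%) and in 47.3% of all, and in 12 of the 15 extensin and proline-rich genes. The evening element AAATATCT occurs in 3.52%, against 4.79% of all, the cold and drought core CCGAC in 12.7% against 12%, the heat shock letters GAANNTTC in 12% against 9.55%, and the phosphate starvation letters GNATATNC in 5.63% against 5.46%. The sulfur response core GAGAC, added after the data were seen, occurs in 47 of the 142 (33.1%) and in 25.8% of all promoters, and in 2 of the 9 sulfur genes. ACGTGTC, described next, can overlap the G-box. These matches are letters in a window and no evidence of binding.

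The root hair element, added after the data were seen, occurs in 2 of the 142 promoters, those of LRX1 and PRP1, and in 0.754% of all. The abscisic acid response letters ACGTGTC occur in 7 of the 142 (4.93%) and in 3.68% of all, and 3 of the 7 are sugar and starch genes, APL3, SWEET13 and AT3G05400, a sugar transporter of the major facilitator family. The surroundings of these matches are shown 5′ to 3′ along each gene's own strand, because the genes are those with the peak in mutant replicate 4 (LRX1, PRP1) or replicate 3 (APL3, SWEET13, AT3G05400). Capitals mark the match on either strand:
LRX1: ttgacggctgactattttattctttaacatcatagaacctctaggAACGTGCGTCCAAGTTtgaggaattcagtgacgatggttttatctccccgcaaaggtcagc
PRP1: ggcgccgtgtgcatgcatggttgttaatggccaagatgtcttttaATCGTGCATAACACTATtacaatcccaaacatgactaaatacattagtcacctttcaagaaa
APL3: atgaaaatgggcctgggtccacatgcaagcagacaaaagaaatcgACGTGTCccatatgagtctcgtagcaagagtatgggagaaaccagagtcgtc
SWEET13: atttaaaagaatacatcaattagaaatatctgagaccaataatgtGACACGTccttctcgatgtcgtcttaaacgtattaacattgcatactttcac
AT3G05400: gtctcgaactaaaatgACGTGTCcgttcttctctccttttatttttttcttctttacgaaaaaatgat
In TAIR10.1 they lie at chr1:4069854-4069959 (LRX1, plus strand), chr1:20504727-20504833 (PRP1, plus strand), chr4:18259447-18259543 (APL3, plus strand), chr5:20667351-20667447 (SWEET13, minus strand) and chr3:1549196-1549263 (AT3G05400, plus strand).

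The seedling label was checked against organ markers. Leaf markers RBCS1A, RCA and RBCS3B summed to 37450 to 42650 TPM in the mutant and 38670 to 43140 TPM in WT, with RBCS3B called lower with both scalings in limma, and flower markers AP3 and PI to at most 0.74 TPM in the mutant and 0.75 TPM in WT. Guard cell markers summed to 71.7 to 87.3 TPM in the mutant and 59.8 to 63.5 TPM in WT. All 3 were called higher in TPM (limma), as were 63% of all tested genes, and 0 of 3 were called with both scalings. Their log2 fold changes after TMM scaling were 0.014 to 0.042. The trichome and epidermis markers GL2 and MYB0 were not called with both scalings either, and GL2 was called higher in TPM. GL2 averaged 10.8 ± 3.67 TPM in the mutant (SD, n = 4) and 6.10 ± 0.23 TPM in WT (SD, n = 3), and MYB0 averaged 1.94 ± 0.56 TPM in the mutant and 2.15 ± 0.46 TPM in WT. Each library listed 22580 to 22693 genes above 0 TPM.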

How the data were processed

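Total RNA of seedlings was sequenced by DNA nanoball sequencing in 4 glk1 glk2 and 3 WT libraries, per the labels. The authors deposited 1 table of TPM values. TopHat2, Cufflinks and TAIR10 are named in the submitters' processing notes, while strand, filters and multi-mapping are not stated there. Each column sums to 1000000, so depth is unknown and no counting interval is given. The column of WT replicate 1 does not follow the row order in 5606 places, where its log2(TPM + 1) correlated with the other libraries across genes at r = 0.055 as deposited and 0.995 with identifiers in alphabetical order, the reading used. Of 27655 identifiers 27445 matched RefSeq TAIR10.1, which gave symbols, products, positions and sequences, all with coordinates of that build.

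Genes with at least 1 TPM in at least 3 libraries (19127) were tested with limma 3.58.1 in R 4.3.3 on log2(TPM + 1), with a mean-variance trend and Benjamini-Hochberg adjusted p under 0.05, in TPM and after division by TMM factors (30% and 5% trims). "Called with both scalings" means both, in 1 direction. A p-value reflects only how far these 7 libraries vary, and that variation may be technical. On this scale the fold change of low genes is understated. The fits were also run on simulated data with independent noise. Those data held no shift of scale between groups and no library that stood apart, so that run does not bear on either.

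The genes, roles and lists were chosen with earlier results of these data known. Families were matched on product text, and the 12 groups by role were set by hand. Named genes were the 12 largest ratios, the 10 highest mutant means, 2 per family and 3 on each side of the threshold. Other named genes were chosen after their values were seen. Shared sequence was counted as exact stretches of 50 bases over annotated exons of all genes, both strands. Replicate numbers were not used to pair libraries in the main fits, and the labels do not say whether they do. Alternatives changed scaling, pseudocount, filter, variance model, thresholds, libraries and the reading of WT replicate 1.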

Additional observations from a re-analysis of the deposited data

Results flagged for a closer look

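Among the 48 named genes and both GLK genes, 1 mutant library stood apart from the other 3 in 5 cases. The usual chance rate of 1 in 20 does not apply, because the same values selected the genes and 1 high library raises a ratio. The cases are given as values. In 4 it was mutant replicate 3, above the rest: 43.13 TPM for AT1G03940, 22.91 TPM for AT1G03495, 73.93 TPM for the glycosyltransferase gene AT2G36970, and 98.58 TPM for GSTF12. AT1G03940 and AT1G03495 share sequence and are not separate cases. In RPP4, mutant replicate 2 stood below the rest at 35.6 TPM.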

How the results depend on the processing

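The number of genes meeting the rule, after the named genes were left out, was 142. It was 32 after TMM scaling, 595 with WT replicate 1 as deposited, 1995 with a ratio of at least 1.5, 19 with a ratio of at least 3, and 87 without mutant replicates 3 and 4, chosen after seeing the data, of which 75 were among the 142. Leaving out 1 library gave 134 to 213. Genes called higher with both scalings numbered 613, against 12046 in TPM alone, 202 with WT replicate 1 as deposited and 234 with the replicate block, and 165 to 781 leaving out 1 library. Genes called lower numbered 483, against 948 after TMM scaling alone, and 356 to 572 leaving out 1 library. Relatives called higher numbered 125, against 2399 in TPM alone, 53 with the block and 43 with WT replicate 1 as deposited (31 to 177 leaving out 1 library). Relatives called lower numbered 100, against 199 after TMM scaling alone and 59 with WT replicate 1 as deposited (68 to 133). Neighbours called higher numbered 12, against 174 in TPM alone, 2 with the block and 4 as deposited (2 to 18), and those called lower 4, against 15 after TMM scaling alone (3 to 6). The cause was not tested. The block left out mutant replicate 4. Deviations of same-numbered libraries correlated at 0.050, 0.174 and 0.089, each best with its own number, which is a hint from the data and not a pairing. The log2 fold change of none of the 48 named genes changed sign under the 11 alternatives run for them. Leaving out 1 library or changing the pseudocount could not change the sign, because the rule put every mutant library above every WT library. Only TMM scaling and WT replicate 1 as deposited could have done so. Depth is unknown, so low values have no counting error.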

Other observations

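A further 61 genes met the ratio and the separation of libraries with a mutant mean between 2 and 5 TPM. The highest of these, NUDT24, named as a nudix hydrolase, had 4.13, 4.02, 5.90 and 5.53 TPM in the mutant, against 0.26, 0.29 and 0.51 TPM in WT. Another 28 genes met the level and the ratio but their groups overlapped. Seed storage transcripts (CRA1, OLEO1 and SESA1) summed to 6.48, 235, 17.6 and 0.88 TPM in mutant replicates 1 to 4, against 1.47, 74.0 and 12.9 TPM in WT replicates 1 to 3, so replicate 2 was the highest in both groups.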
